A study of Homo sapiens with 28 samples.

Results

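Gene deserts are stretches of the genome with no protein-coding gene nearby, and 3324 of the 105048 consensus regions of open chromatin measured here lay in them. A region was counted as a gene desert peak when its midpoint was more than 500 kb from the body of every RefSeq protein-coding gene (GRCh38) on an autosome. No accessibility value entered that choice, and all 3324 peaks passed the filter on low counts. The measurements are ATAC-seq counts, in which a transposase cuts and tags accessible DNA, from Kuramochi, an epithelial ovarian cancer cell line labelled BRCA2-mutant.

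The cells were exposed to olaparib, an inhibitor of the DNA repair enzyme PARP. The 7 populations T5 to T320 had adapted to 5, 10, 20, 40, 80, 160 or 320 uM of the drug, the number in each name, and were maintained in it. P10 and P320 are persisters, drug-naïve cells exposed for 9 days to 10 or 320 uM, and C are untreated cells. Each of these 10 groups had 2 libraries. C and the 7 adapted populations were sorted on the surface proteins CD24 and CD44, and the adapted cells were taken as CD24 low and CD44 high. No sort is given for P10 and P320, so the sort and the exposure cannot be told apart where persisters are compared with C or with adapted cells. All 10 groups share this cell line and its BRCA2 mutation. The labels do not say whether the 2 libraries of a group came from separate cultures, so p-values measure the spread between libraries only. A further 8 samples derived from T320 were not analysed here.

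Total counts ran from 9627970 to 29699950 per library, and 185110 to 594978 of them fell in gene desert peaks. In C and the adapted populations the libraries numbered 1 were the shallower ones. The 2 libraries of a group correlated at r = 0.836 to 0.957 over the gene desert peaks, lowest in T40 and highest in P320. The line's label was checked at gene ends: PAX8, WT1, MSLN, SOX17, KRT8, KRT18, EPCAM and CDH1 had peaks there, MUC16 had none, and neither did PTPRC, CD3E, PECAM1, CDH5 or DCN. In C, PAX8, WT1, MSLN, SOX17 and KRT8 stood at 30.6 to 51.1 CPM. KRT18, EPCAM and CDH1 were lower, at 5.63, 7.13 and 3.44 CPM. COL1A1, a fibroblast collagen gene, had a peak of 14.8 CPM in C, above KRT18, EPCAM and CDH1. DNA copy number was not measured, so more accessible copies and more accessibility per copy cannot be told apart; values with each 5 Mb stretch of the genome centred on its own median shift are given beside the counts of T5, the persister comparisons and the matched-dose comparisons. Counts by desert were not centred.

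Open chromatin far from genes is mostly made of enhancers, insulators and the promoters of long noncoding RNAs. Many of the largest deserts flank developmental transcription factors or neuronal adhesion genes, and some hold enhancers that act on a gene at a great distance, as upstream of SOX9. In epithelial cancer cells such elements are read by factors of the AP-1 and TEAD families, and CTCF marks insulators. The genes named below with a desert are its flanking genes and are not assigned as targets.

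A few gene desert peaks covered the RefSeq promoter of a long noncoding RNA, and these are the ones whose sequence can be shown. In all, 51 of the 3324 peaks (1.53%) overlapped such a promoter window, against 3.77% of autosomal peaks. The 5 windows printed here were chosen after their values were seen, to show a promoter gained in every adapted population, a promoter gained in adapted cells and P10, a pair that were lost, and the most accessible peak of the set. Each is 300 bases of GRCh38.p14 from RefSeq, 5′ to 3′ on the gene's strand, and capitals mark an AP-1 motif (TGANTCA, searched on both strands).
LINC02876: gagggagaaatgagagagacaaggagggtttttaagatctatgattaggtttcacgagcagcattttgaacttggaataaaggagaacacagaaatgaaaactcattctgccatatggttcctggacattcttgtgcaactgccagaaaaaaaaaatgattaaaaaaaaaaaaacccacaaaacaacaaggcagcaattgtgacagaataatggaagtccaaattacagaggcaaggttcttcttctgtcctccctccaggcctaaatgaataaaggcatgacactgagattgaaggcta
LINC02697: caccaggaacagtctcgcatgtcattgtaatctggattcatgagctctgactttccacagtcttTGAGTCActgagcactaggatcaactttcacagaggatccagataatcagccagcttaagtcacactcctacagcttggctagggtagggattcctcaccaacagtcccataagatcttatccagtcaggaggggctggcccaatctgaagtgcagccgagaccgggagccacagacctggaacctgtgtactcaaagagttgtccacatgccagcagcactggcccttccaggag
LOC105378836: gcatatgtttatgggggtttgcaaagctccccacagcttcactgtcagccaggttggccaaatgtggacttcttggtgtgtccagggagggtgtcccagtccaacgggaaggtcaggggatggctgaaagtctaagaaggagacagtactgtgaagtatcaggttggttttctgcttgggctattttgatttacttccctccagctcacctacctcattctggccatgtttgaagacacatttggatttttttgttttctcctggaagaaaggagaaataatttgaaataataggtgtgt
RMST: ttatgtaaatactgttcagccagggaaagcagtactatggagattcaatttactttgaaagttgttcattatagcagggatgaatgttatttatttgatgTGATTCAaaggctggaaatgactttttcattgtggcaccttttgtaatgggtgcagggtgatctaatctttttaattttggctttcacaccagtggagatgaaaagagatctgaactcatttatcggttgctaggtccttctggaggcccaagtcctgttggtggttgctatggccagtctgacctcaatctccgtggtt
LINC00662: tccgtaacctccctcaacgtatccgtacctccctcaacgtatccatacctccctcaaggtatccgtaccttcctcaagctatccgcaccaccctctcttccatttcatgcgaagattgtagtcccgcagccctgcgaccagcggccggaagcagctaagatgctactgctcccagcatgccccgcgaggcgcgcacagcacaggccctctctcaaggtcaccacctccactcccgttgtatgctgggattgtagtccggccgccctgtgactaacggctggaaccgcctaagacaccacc

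The LINC02876 window is chr17:52985255-52985554 (plus strand), in the desert between CA10 and KIF2B. Its peak, chr17:52984981-52986998, measured 8.48 and 11.8 CPM (a peak's reads scaled to a common library total) in T320 and 3.53 and 1.79 CPM in C. T5 already stood at 11.9 and 8.69 CPM, so the T5 and T320 libraries were all above both C libraries. The log2 fold change was 2.00 ± 0.32 (SE) in T5 and 2.00 ± 0.32 in T320 against C, and -0.22 ± 0.34 in P320 against C.

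The LINC02697 window is chr11:134950739-134951038 (plus strand), beyond B3GAT1 at the end of the chromosome. Its peak, chr11:134950744-134951524, measured 7.45 and 8.83 CPM in T320, 5.42 and 5.49 CPM in P10, 1.98 and 2.08 CPM in P320 and 1.89 and 1.98 CPM in C. T320 rose by a log2 fold change of 2.07 ± 0.28 and P10 by 1.49 ± 0.28 against C, while P320 stood at 0.06 ± 0.29. The AP-1 motif in this window was present in 11 of the 60 desert promoter windows (18.3%), against 7.71% of all 35116 RefSeq promoter windows and 10.4% of those of long noncoding RNAs. The CTCF core (AGGGGGC, both strands) was in 3 of the 60 (5.00%), against 14.4% of all windows and 9.00% of those of long noncoding RNAs. The TEAD motif (GGAATG, both strands) was in 9 (15.0%), against 14% and 17.1%. Some of the 60 windows overlap and share a site, among them a pair with the CTCF core and 2 pairs with the TEAD motif, so these counts are not of separate sites.

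Both lost promoters were lower in T320 and in P10 than in C. The LOC105378836 window is chr1:87976835-87977134 (minus strand), between LMO4, a LIM-domain transcription cofactor, and PKN2. Its peak, chr1:87976327-87977664, measured 1.63 and 0.85 CPM in T320, 7.06 and 5.45 CPM in P10, 5.61 and 6.24 CPM in P320 and 14.3 and 15.6 CPM in C. The T320 libraries were lowest, P10 and P320 overlapped each other below C, and the log2 fold changes against C were -3.66 ± 0.48, -1.26 ± 0.41 and -1.33 ± 0.41. The RMST window is chr12:97464441-97464740 (plus strand); RMST is a noncoding RNA known in neural cells as a partner of SOX2. Its peak, chr12:97464471-97465511, measured 3.77 and 1.57 CPM in T320, 3.48 and 2.83 CPM in P10 and 5.33 and 8.25 CPM in C (log2 fold changes of -1.41 ± 0.39 and -1.11 ± 0.37 against C).

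The LINC00662 window is chr19:27793891-27794190 (minus strand), and its peak, chr19:27792629-27794801, was the most accessible of the 3324, with a mean of 86.8 CPM over the 20 libraries. It also covers the start of LINC02987. It measured 62.6 and 91.6 CPM in T320, 84.7 and 80.8 CPM in P10, 108 and 110 CPM in P320 and 67.0 and 98.2 CPM in C, and was called in none of the 13 comparisons. Of the 51 peaks over a noncoding promoter, 9 were gained and 9 lost in T320 against C, 3 were gained and 13 lost in P10, and 0 were gained and 1 lost in P320. Of all autosomal peaks over such promoters, 8.85% were gained and 7.85% lost in T320, 9.52% and 3.85% in P10, and 11.2% and 2.03% in P320. Of these 3899 autosomal peaks, 1913 also lay within 1 kb of an end of a coding gene, which no gene desert peak does. The 2 sets are thus not alike in their distance from coding genes.

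The 3324 peaks lay in 243 separate deserts. Of these, 125 deserts held at least 10 peaks and 2873 of the peaks, 29 held a single peak, and the largest held 90. The median distance to the nearest coding gene was 734 kb, and 746 peaks were over 1000 kb away. Gene desert peaks were about as wide as other peaks (median 1048 bp, against 1119 bp for all peaks) but less accessible, with a median of 3.93 CPM against 5.56 CPM for all peaks and 16.3 CPM for peaks within 1 kb of an end of a coding gene. Their group means were more spread: the SD of the log2 group means had a median of 0.558, against 0.448 over all peaks. The part of their lower counts in this was not tested. The farthest peak, chr1:124990166-124991919 near the centromere, was 3528 kb from a gene and was lost in T10 to T320. It measured 2.65 and 2.06 CPM in T320 and 8.29 and 9.19 CPM in C (log2 fold change -1.91 ± 0.31).

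Noncoding gene bodies overlapped 960 of the 3324 peaks (28.9%), against 20.8% of autosomal peaks, and 921 of these overlapped a long noncoding RNA. The nearest coding gene was a listed neural adhesion or synapse gene (cadherin, protocadherin, SLITRK, teneurin, ephrin receptor and similar families, by symbol) for 551 peaks (16.6%), against 3.34% of autosomal peaks. It was a listed developmental transcription factor for 174 (5.23%), against 3.19%.

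The share of all counts that fell in gene desert peaks was lower in persisters than in any other group. It was 1.39% and 1.38% in P10 and 1.37% and 1.37% in P320, against 1.86% and 1.84% in C. T5 had 1.98% and 2.08%, T10 had 1.82% and 1.90% and T20 had 1.95% and 1.96%. T40 had 1.92% and 1.81%, T80 had 1.82% and 1.87%, T160 had 1.8% and 1.94% and T320 had 1.91% and 1.95%. All 4 persister libraries lay below all 16 others, and T5, T20 and T320 lay above both C libraries. The ratio to C was 0.749 in P10, 0.740 in P320, 1.10 in T5 and 1.04 in T320; an exact two-sided permutation test of 2 libraries against 2 cannot go below p = 0.333, which each of these 4 reached.

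**Figure D1:**
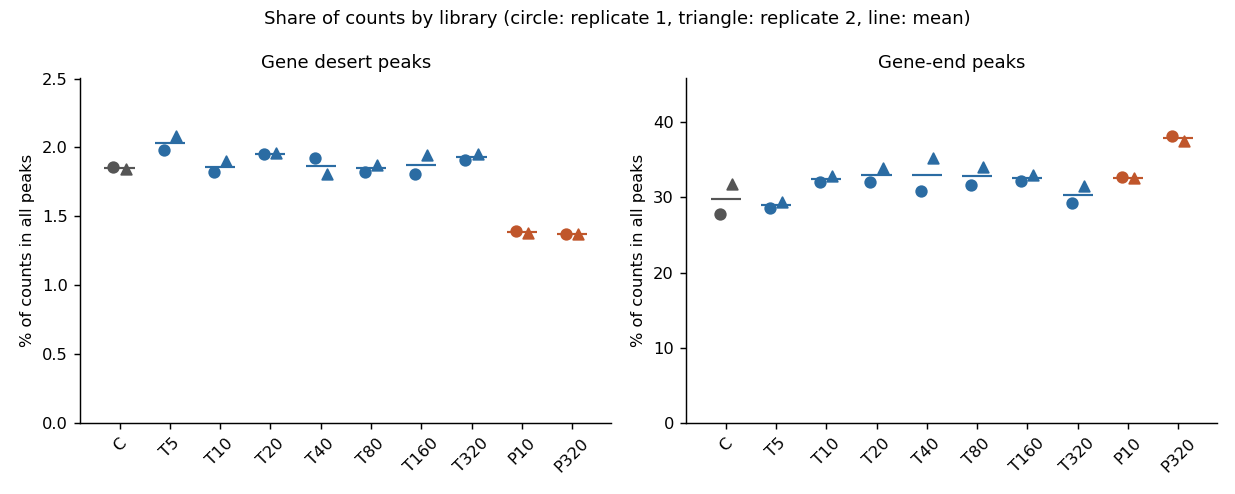
Share of each library's counts that fell in gene desert peaks (left, percent) and in peaks within 1 kb of a coding gene end (right, percent); circles are replicate 1, triangles replicate 2 and lines group means of 2. The 4 persister libraries sit between 1.37% and 1.39% on the left, below all others, and P320 alone sits above the rest on the right.

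The share of counts at gene ends was 32.7% and 32.5% in P10 and 38.2% and 37.5% in P320, against 27.8% and 31.8% in C. Both P320 libraries were above all 18 others, and both P10 libraries were above C and inside the range of the adapted libraries (28.5% to 35.3%). The part of gene-end counts in the lower desert share was not tested. Persister libraries had 22184883 to 29699950 counts and the C and adapted libraries 9627970 to 28547221, and the part of depth was not tested. The number of gene desert peaks whose group mean was under 1 CPM was 518 in P10 (15.6%) and 449 in P320 (13.5%), against 173 in C (5.20%) and 139 to 189 in the adapted populations. Over all peaks these shares were 4.59% in P10, 5.93% in P320 and 2.07% in C.

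Every gene desert peak was tested against C within a fit of all 105048 peaks. A peak is called gained or lost where the Benjamini-Hochberg adjusted p over all peaks was under 0.05 and the log2 fold change at least 1 in size. Adapted cells gained more gene desert peaks than they lost at each dose. T5 gained 297 of the 3324 (8.94%; 4.73% of all peaks were gained) and lost 150 (4.51%; 4.46% of all peaks). T10 gained 506 (15.2%; all peaks 8.51%) and lost 350 (10.5%; 9.22%). T20 gained 664 (20.0%; 11.2%) and lost 458 (13.8%; 13.3%), T40 gained 632 (19.0%; 11.8%) and lost 485 (14.6%; 13.3%), and T80 gained 645 (19.4%; 12.3%) and lost 520 (15.6%; 13.6%). T160 gained 612 (18.4%; 11.0%) and lost 437 (13.1%; 12.5%), and T320 gained 721 (21.7%; 15.0%) and lost 583 (17.5%; 15.5%). Called either way were 13.4% of gene desert peaks in T5 (9.19% of all peaks) and 25.8% in T10 (17.7%). For T20 the share was 33.8% (24.5%), for T40 33.6% (25.2%), for T80 35.0% (26.0%), for T160 31.6% (23.5%) and for T320 39.2% (30.5%). The gained share was above that of all peaks in all 7 populations, and stayed above under each of 15 alternative settings. The lost share was near that of all peaks and fell to or under it under 1 to 7 of the 15. The setting without a filter, counted among the 15, repeats the main fit, because the filter removed 0 peaks.

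The counts for adapted cells depended on C replicate 2 and on the deeper library of each population. Gains and losses over all peaks fell as well when either was left out, so the drop was not particular to gene deserts. In T5 the excess of the gained share over that of all peaks narrowed in both cases. Without C replicate 2 T5 gained 104 and lost 43, T10 gained 293 and lost 190, T20 gained 519 and lost 272, T40 gained 472 and lost 308, T80 gained 462 and lost 338 and T160 gained 412 and lost 278. Without the population's own replicate 2 T5 gained 66 and lost 36, T10 gained 245 and lost 156, T20 gained 455 and lost 210 and T40 gained 467 and lost 267. Likewise T80 gained 409 and lost 290, T160 gained 371 and lost 263 and T320 gained 503 and lost 363. Without T5 replicate 1, T5 gained 206 and lost 60. In T5 the split also moved with the scaling: 321 were gained and 88 lost when libraries were scaled on gene-end peaks alone, and 214 and 173 when each 5 Mb window was centred. Of all 105048 peaks, 5562 were gained and 2866 lost with the first scaling, and 4075 and 4087 with the second. With gene-end scaling T40 and T80 had more lost than gained desert peaks (500 gained and 536 lost, and 503 gained and 565 lost). All peaks then had 9026 gained and 16034 lost in T40, and 9644 gained and 16200 lost in T80.

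**Figure D2:**
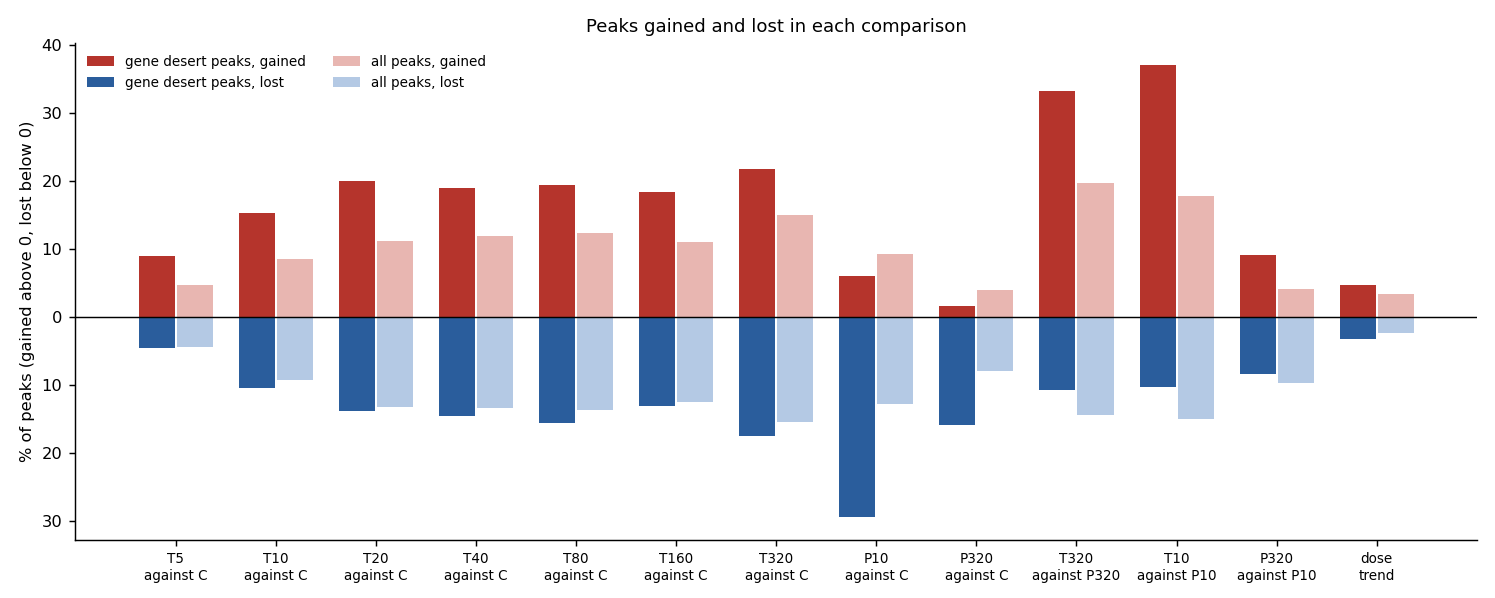
Percent of the 3324 gene desert peaks gained (above 0) or lost (below 0) in each comparison (dark bars), beside the percent of all 105048 peaks (pale bars). Gains exceed the share of all peaks in the 7 adapted populations, and P10 shows the reverse, with 6.02% gained and 29.5% lost.

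The 4 largest rises in T320, at no more than 1 per desert (2 CPM or more on the higher side, libraries not overlapping), started from low levels in C. In the desert between EYS and ADGRB3, an adhesion receptor gene of neurons, chr6:66508284-66508761 had 0 and 2 reads in the C libraries, and T320 had 2.14 and 3.63 CPM. With 106 summed reads in T320 and 2 in C, the ratio was 52.1, with an exact 95% interval of 14.1 to 435 that covers counting error only. This peak was gained in all 7 adapted populations and in P320 (0.812 and 0.706 CPM; log2 fold change 3.55 ± 0.92). Between SOCS6 and CBLN2, chr18:72013271-72014159 measured 5.05 and 7.57 CPM in T320 and 0.492 and 0.0943 CPM in C (4.64 ± 0.64); P10 and P320 stayed under 0.7 CPM. Between LOC100996696 and TAFA2, chr12:60335321-60336213 measured 4.28 and 6.54 CPM in T320 and 0.574 and 0.236 CPM in C (3.86 ± 0.45). That peak was also gained in P10, at 2.29 and 1.26 CPM (2.24 ± 0.48).

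The desert between CDH8 and CDH11, genes of cell-adhesion cadherins, held a pair of peaks that opened with the dose. The peak chr16:64440076-64441442 measured 1.72 and 0.613 CPM in C and 1.72 and 1.32 CPM in T5. T10 had 3.79 and 5.43 CPM, T20 had 5.24 and 6.73, T40 had 8.11 and 11.1, T80 had 8.83 and 11.7, T160 had 9.42 and 8.05 and T320 had 17.5 and 23.8 CPM. The T320 libraries stood above all others, and T5 overlapped C. The log2 fold change was 4.26 ± 0.37 in T320 against C (adjusted p = 4e-07), and P10, at 3.22 and 3.84 CPM, also rose (1.71 ± 0.38). A second peak, chr16:64161099-64162026, measured 9.33 and 11.6 CPM in T320 and 1.23 and 0.33 CPM in C (3.86 ± 0.49). In the test of a trend across the 7 adapted populations, it had the steepest rise named by the same rule, 0.65 ± 0.09 log2 units per doubling of the dose, and 0.48 ± 0.08 at the first peak.

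The largest fall in T320 by that rule lay beyond KLF4, a transcription factor of epithelial differentiation. The peak chr9:108137792-108139136, in the gap between KLF4 and ACTL7B, measured 0.942 and 0.986 CPM in T320, 1.72 and 1.53 CPM in P10, 8.01 and 7.58 CPM in P320 and 16.5 and 27.5 CPM in C. The groups were fully separated, and the log2 fold changes against C were -4.50 ± 0.34, -3.76 ± 0.31 and -1.5 ± 0.27. T5 stood at 4.98 and 5.70 CPM and T160 at 1.97 and 1.67 CPM. Between SLITRK1 and SLITRK6, genes of neuronal transmembrane proteins, chr13:84582114-84583192 measured 2.31 and 0.179 CPM in T320 and 14.3 and 23.6 CPM in C (-4.18 ± 0.67). Between TENM4, a teneurin of neural wiring, and FAM181B, chr11:82094179-82094674 measured 0.514 and 0.538 CPM in T320 and 6.98 and 7.73 CPM in C (-3.79 ± 0.52).

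A single peak was among the largest falls in T320, P10 and P320 at once. It lies between SLITRK5 and GPC5, a glypican gene, at chr13:89600733-89601577. It measured 1.03 and 0.583 CPM in T320, 0.662 and 0.828 CPM in P10, 1.8 and 1.11 CPM in P320 and 5.66 and 15.1 CPM in C. The 2 C libraries differed widely but were above all others. The log2 fold changes, which share the C libraries, were -3.75 ± 0.59, -3.80 ± 0.57 and -2.84 ± 0.53.

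At the other doses 1 fall each is named by the same rule. Between EPHA5 and CENPC, chr4:66827664-66828458 measured 0.355 and 0.73 CPM in T5, 0.729 and 0.391 CPM in T10 and 7.88 and 10.7 CPM in C, with log2 fold changes of -4.02 ± 0.61 and -4.11 ± 0.63. Between LOC124903767 and SHCBP1, chr16:35743147-35743860 measured 0.916 and 0.165 CPM in T20 and 6.4 and 8.72 CPM in C (-3.93 ± 0.65). In the LINGO2 to ACO1 gap, chr9:31587133-31587464 measured 0.17 and 0.302 CPM in T80 and 4.76 and 4.1 CPM in C (-4.12 ± 0.74). The largest falls in T40 and T160 rested on few reads. For chr4:96586856-96587293, 2 summed reads in T40 and 85 in C gave a ratio of 0.0265 (95% counting interval 0.00316 to 0.0989). For chr6:60367733-60368037, 3 reads in T160 and 72 in C gave 0.0417 (0.0084 to 0.127).

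Across the 7 adapted populations, 155 gene desert peaks rose with the dose (4.66%; 3.37% of all peaks) and 109 fell (3.28%; 2.35% of all peaks), counting slopes of 0.25 or more log2 units each time the dose doubles; 7.94% were called either way, against 5.72% of all peaks. The trend rested on both ends of the series. Without T320, 20 rose and 48 fell, and without T5, 111 rose and 55 fell. The steepest fall by the same rule, chr11:37370340-37371683 between IFTAP and LRRC4C, was highest at the lowest dose: C had 2.95 and 2.78 CPM and T5 had 11.1 and 13.6 CPM. T10 had 5.90 and 9.42 CPM, T20 had 6.74 and 6.29, T40 had 4.40 and 3.26, T80 had 2.89 and 1.76, T160 had 2.60 and 1.41 and T320 had 2.31 and 0.762 CPM. Its slope was -0.56 ± 0.05, and T5 was gained against C (2.11 ± 0.38) while T320 was not called (-1.01 ± 0.43).

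**Figure D3:**
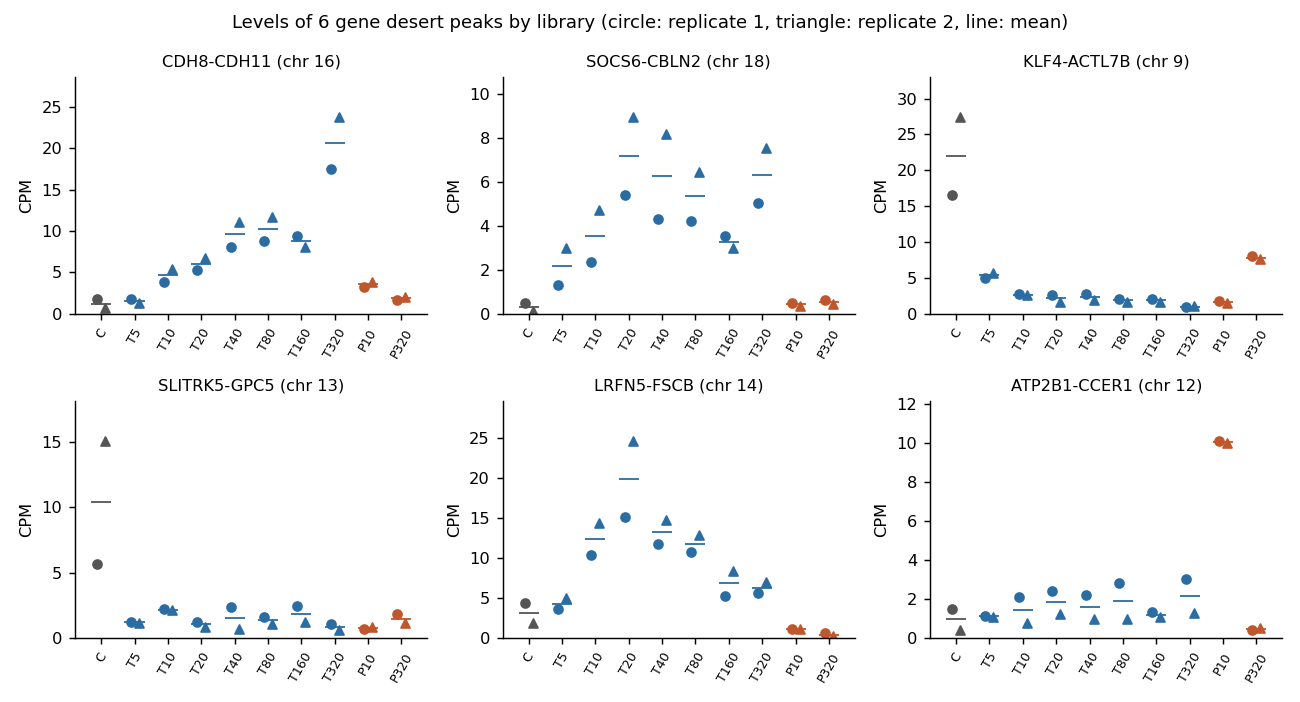
Accessibility of 6 gene desert peaks in each library (CPM), with the 10 groups along the horizontal axis; circles are replicate 1, triangles replicate 2 and lines means. The CDH8-CDH11 peak climbs to 17.5 and 23.8 CPM in T320, and the KLF4-ACTL7B peak drops to 0.942 and 0.986 CPM.

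In persisters, losses exceeded gains by several fold. P10 gained 200 gene desert peaks (6.02%; 9.32% of all peaks were gained) and lost 979 (29.5%; 12.8% of all peaks). P320 gained 52 (1.56%; 3.94% of all peaks) and lost 530 (15.9%; 7.91%). Either way these were 35.5% in P10 (22.1% of all peaks) and 17.5% in P320 (11.8%). The lost share was above, and the gained share below, that of all peaks in both comparisons under each of the 15 alternative settings. The median log2 fold change of the 3324 peaks was -0.56 in P10 and -0.42 in P320, against -0.10 and -0.11 over all peaks. Losses were more frequent among gene desert peaks at higher and at lower levels alike. Among peaks above the median level of gene desert peaks, P10 lost 33.8% of gene desert peaks and 13.6% of other peaks away from gene ends, and at or below that level 25.1% and 14.6%.

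How many peaks were lost in persisters moved with single libraries and with the scaling, and the direction did not. In the fits below that leave out a library, losses over all peaks fell as well. P10 gained 51 and lost 598 without C replicate 2, gained 119 and lost 684 without P10 replicate 1, and gained 118 and lost 598 without P10 replicate 2. P320 gained 20 and lost 334 without C replicate 2, gained 20 and lost 185 without P320 replicate 1, and gained 22 and lost 170 without P320 replicate 2. With each 5 Mb window centred, 308 were gained and 660 lost in P10, with a median of -0.27, and 91 were gained and 342 lost in P320, with a median of -0.22. Of all 105048 peaks, 10354 were then gained and 10793 lost in P10, and 4095 and 6593 in P320. Scaling on gene-end peaks moved the median of all peaks to -0.26 in P10 and -0.60 in P320. The medians of gene desert peaks were then -0.70 and -0.90, with 116 gained and 1120 lost in P10 and 8 gained and 1235 lost in P320. All peaks moved the same way with that scaling, with 5980 gained and 16540 lost in P10 and 864 gained and 23695 lost in P320.

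Of the 4 largest falls in P10, 3 were in peaks that stood higher in P320 by the test of that difference. These peaks were picked for low P10 values and that test uses the same P10 libraries, so it is not separate evidence. The peak chr8:83259236-83260674, between SNX16 and RALYL, measured 1.85 and 0.872 CPM in P10, 9.99 and 8.81 CPM in P320 and 12 and 34.8 CPM in C. The log2 fold change was -4.11 ± 0.45 in P10 and -1.33 ± 0.38 in P320 against C, and 2.78 ± 0.44 in P320 against P10. Between SLITRK1 and SLITRK6, chr13:85031709-85032112 measured 0.265 and 0.174 CPM in P10, 1.52 and 1.78 CPM in P320 and 2.38 and 4.67 CPM in C (-3.99 ± 0.52 in P10, and -1.11 ± 0.41 in P320, not called). Between PLA2G4A, a phospholipase gene, and BRINP3, chr1:188394492-188395768 measured 0.97 and 0.872 CPM in P10, 5.26 and 4.31 CPM in P320 and 9.03 and 17.1 CPM in C (-3.83 ± 0.45 and -1.46 ± 0.38).

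Fewer gene desert peaks opened in persisters. The 4 largest rises in P10 had lower levels in P320, a difference that was called in 2 of them. They were picked for high P10 values in the same libraries, so a lower level in P320 is not separate evidence. Between ATP2B1, a plasma membrane calcium pump gene, and CCER1, chr12:90279904-90281726 measured 10.1 and 9.98 CPM in P10, 0.388 and 0.52 CPM in P320 and 1.48 and 0.424 CPM in C. P10 rose by 3.5 ± 0.64 against C, and the difference of P320 from P10 was -4.45 ± 0.66 (adjusted p = 0.00024). Between SPDYE21 and AUTS2, chr7:69002297-69003415 measured 11.8 and 12.9 CPM in P10, 1.13 and 1.60 CPM in P320 and 2.71 and 0.943 CPM in C (2.82 ± 0.63 in P10). Between NXPH1, a neurexin-binding protein gene, and COXFA4, chr7:10237386-10237930 measured 3.26 and 3.53 CPM in P10 and 0.657 and 0.283 CPM in C (2.94 ± 0.57), and 4.97 and 5.83 CPM in T320. P320 stood at 1.41 and 1.63 CPM there, and its difference from P10 was not called (-1.15 ± 0.47). Between TBX3 and MED13L, chr12:115341300-115341868 measured 3.22 and 2.92 CPM in P10 and 0.739 and 0.236 CPM in C (2.76 ± 0.79). P320 stood at 0.424 and 1.19 CPM, and that difference was not called either (-1.93 ± 0.70).

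In P320 the 4 largest rises were smaller. Between TRHDE and ATXN7L3B, chr12:73277940-73278532 measured 4.73 and 4.05 CPM in P320, 0.441 and 0.392 CPM in P10 and 0.903 and 0.66 CPM in C (2.51 ± 0.52 in P320 against C). Between REEP3 and CTNNA3, chr10:65177043-65177671 measured 2.54 and 1.75 CPM in P320 and 0.574 and 0.424 CPM in C (2.12 ± 0.71). The peak chr7:63067958-63068799 measured 6.57 and 6.99 CPM in P320 and 1.15 and 1.93 CPM in C (2.10 ± 0.57). Between LRRC4C, a synaptic adhesion gene, and API5, chr11:42065771-42067075 was gained at both doses, with 9.66 and 8.46 CPM in P10, 6.21 and 6.35 CPM in P320 and 1.72 and 1.37 CPM in C (2.56 ± 0.53 and 2.04 ± 0.53).

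The largest falls in P320 reached levels near 0. Between ZPLD1 and ALCAM, an adhesion gene, chr3:103850844-103852362 measured 0.353 and 0.372 CPM in P320, 1.01 and 1.83 CPM in P10 and 3.61 and 3.25 CPM in C (-3.21 ± 0.40 in P320 and -1.26 ± 0.35 in P10). Between LRFN5 and FSCB, chr14:43734887-43736770 measured 0.635 and 0.186 CPM in P320 and 4.35 and 1.84 CPM in C (-2.82 ± 0.50). In the TENM4 to FAM181B gap, chr11:81112477-81113232 measured 0.565 and 0.483 CPM in P320 and 4.6 and 3.82 CPM in C (-2.98 ± 0.67).

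P320 set against P10 gave 303 gained (9.12%; 4.1% of all peaks) and 278 lost gene desert peaks (8.36%; 9.68%), or 17.5% either way (13.8%). This balance was not stable. With gene-end scaling 142 were gained and 413 lost, with each 5 Mb window centred 285 were gained and 322 lost, and with an offset that varied with a peak's level (cyclic loess) 435 were gained and 243 lost. Without P10 replicate 1 there were 126 gained and 135 lost, without P10 replicate 2 117 and 140, without P320 replicate 1 121 and 94, and without P320 replicate 2 148 and 116. The gained share stayed above, and the lost share below, that of all peaks under the 15 settings. The largest rise was at chr4:132401358-132402133, before the protocadherin gene PCDH10, with 2.61 and 2.56 CPM in P320 and 0.132 and 0.174 CPM in P10 (4.02 ± 0.63).

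At matched doses, gene desert peaks were more often open in adapted cells than in persisters. T320 against P320 gave 1102 gained (33.2%; 19.7% of all peaks) and 357 lost (10.7%; 14.5%). T10 against P10 gave 1230 gained (37.0%; 17.8%) and 345 lost (10.4%; 15.1%). Either way 43.9% (34.2% of all peaks) and 47.4% (32.9%) were called. With gene-end scaling T320 against P320 had 1491 gained and 175 lost. With windows centred it had 832 and 412, and T10 against P10 had 920 and 454. Over all peaks T320 against P320 had 31205 gained and 6276 lost with gene-end scaling. With windows centred all peaks had 17532 and 13073 there, and 14787 and 15875 in T10 against P10. The lost counts were 194 without T320 replicate 2, 152 without T10 replicate 2 and 219 without P10 replicate 2. These 2 comparisons share no library: 694 peaks were gained in both, 63.0% of the T320 list and 56.4% of the T10 list, against 46.6% and 51.5% for the lists over all peaks. Lost in both were 98, or 27.5% and 28.4%, against 33.1% and 31.9% over all peaks. Such overlaps also depend on how many peaks were gained or lost in each comparison. Gene desert peaks had larger gained shares and smaller lost shares than all peaks in both comparisons. The overlaps were not adjusted for that, so they cannot be read as closer or weaker agreement between doses.

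The largest difference at 320 uM was between CDH9, a cadherin gene, and LOC124901178. The peak chr5:28103817-28105193 measured 5.48 and 3.76 CPM in T320 and 0.0706 and 0.111 CPM in P320 (5.56 ± 0.58, adjusted p = 8e-07). C stood between them at 2.63 and 0.754 CPM, and T20 measured 10.2 and 12.5 CPM. At 10 uM it was between TMEFF2 and SLC39A10: chr2:194343125-194343967 measured 4.08 and 6.22 CPM in T10 and 0.0882 and 0.0872 CPM in P10 (5.78 ± 0.72, adjusted p = 9e-06). The largest falls were chr9:31023913-31024331, with 0.599 and 0 CPM in T320 and 2.68 and 3.23 CPM in P320 (-3.63 ± 0.94), and chr1:29981699-29982266, with 0.364 and 0.156 CPM in T10 and 5.29 and 5.75 CPM in P10 (-4.49 ± 0.80).

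Setting all 20 libraries side by side, 524 gene desert peaks (15.8%) were lower in all 4 persister libraries than in all 16 others, against 7.42% of all peaks, and 37 (1.11%) were higher, against 5.37%. All 14 adapted libraries stood above C and the persisters in 314 (9.45%; 5.12% of all peaks) and below them in 94 (2.83%; 4.8%). P10 was the lowest of the 10 groups at 1094 gene desert peaks (32.9%, against 21.5% of all peaks) and P320 at 720 (21.7%, against 16.9%). The highest group was most often T5 (569 peaks, 17.1%, against 10.2% of all peaks), then T320 (546, 16.4%, against 13.5%) and C (526, 15.8%, against 13.7%). P10 was highest at 369 (11.1%, against 17.2%) and P320 at 244 (7.34%, against 15.9%).

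Beyond 10 kb, the share of peaks lost in P10 was higher in each more distant class. Among autosomal peaks inside a coding gene body P10 lost 11.8%, and from there outward the losses were 5.99% within 10 kb, 12.9% at 10 to 100 kb, 18.2% at 100 to 250 kb, 22.0% at 250 to 500 kb, 28.4% at 500 to 1000 kb and 33.2% beyond 1000 kb. P320 lost 6.91%, 4.32%, 9.19%, 12%, 12.6%, 16.2% and 15.1% in the same classes, and gained 4.95%, 5.51%, 1.86%, 1.74%, 1.64%, 1.82% and 0.67%. T10 gains over P10 ran from 10.8% within 10 kb to 41.2% beyond 1000 kb. T320 gains over C were 13.9% inside gene bodies, 22.0% at 250 to 500 kb, 22.6% at 500 to 1000 kb and 18.6% beyond 1000 kb. Levels fell outward too, from a median of 7.60 CPM within 10 kb to 3.70 CPM beyond 1000 kb. The 2 peaks at the limit were chr1:60573198-60574566, just inside at 500.1 kb from C1orf87, with 7.22 and 6.03 CPM in C, and chr6:92143929-92144607, just outside at 499.99 kb, with 0.903 and 0.943 CPM in C.

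**Figure D4:**
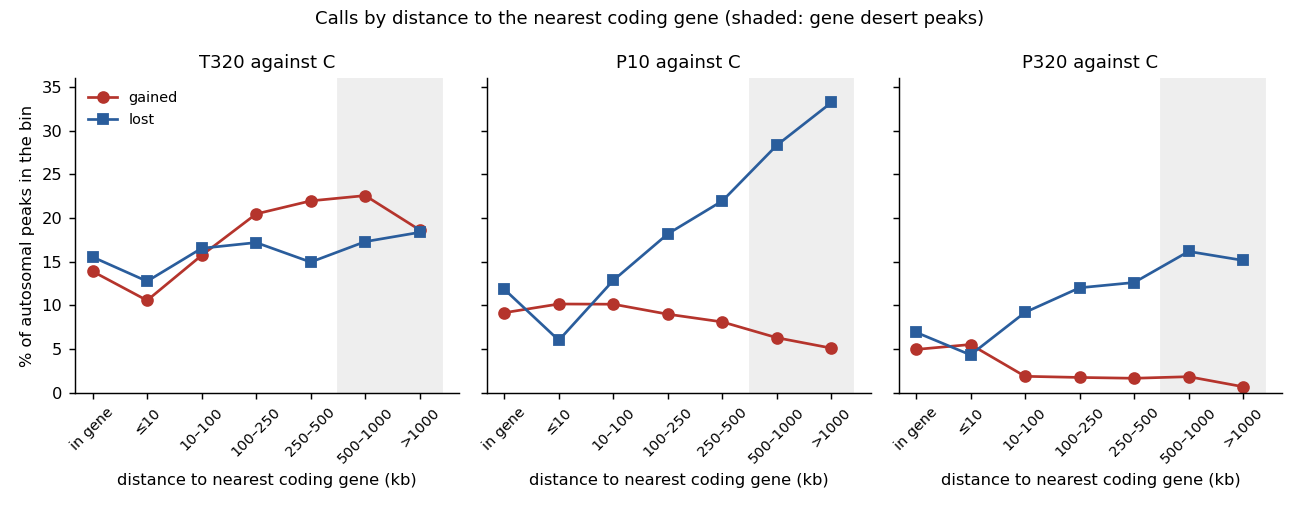
Percent of autosomal peaks gained and lost by distance from the nearest protein-coding gene body (kb), for T320, P10 and P320 each against C; the shaded classes hold the gene desert peaks. Losses in P10 climb from 5.99% within 10 kb to 33.2% beyond 1000 kb.

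Peaks of a desert moved both ways in many deserts. Of the 125 with at least 10 peaks, 83 had gains and losses in T320, 73 in P10 and 29 in P320. Among these 125 deserts, the median log2 fold change was below 0 in 113 for P10 and in 120 for P320 against C, and above 0 in 65 for T320 against C. These stand beside medians of -0.56 and -0.42 over the 3324 peaks in P10 and P320. In P10, 17 of these deserts had lost 50% or more of their peaks and none had gained as many, and in P320 1 had lost as many. In T320, 16 had gained 50% or more and 7 had lost as many, with medians from -1.72 to 2.94. Peaks of a desert are neighbours on 1 chromosome and are not independent of each other or of that chromosome's copy number.

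The 5 deserts with most peaks differed in which group stood apart. The desert after MYC (chr8, 90 peaks to GSDMC) had summed levels of 1011.8 and 965.5 CPM in T320, 956.0 and 925.2 CPM in P10, 926.8 and 905.6 CPM in P320 and 1257.1 and 1375.5 CPM in C. These 6 libraries were below both C libraries. Of the 90 peaks 6 were gained and 20 lost in T320, 6 and 26 in P10 and 1 and 20 in P320. Over all 3324 gene desert peaks 21.7% were gained and 17.5% lost in T320, 6.02% and 29.5% in P10 and 1.56% and 15.9% in P320. None of the 3 peaks at the ends of MYC itself was called in these comparisons. The desert between ZNF254 and UQCRFS1, which spans the centromere of chromosome 19 (67 peaks), was lower in T320 (417.0 and 420.3 CPM) than in C (697.0 and 732.6 CPM), with 2 gained and 23 lost, while P10 stood at 692.5 and 659.6 CPM with 5 gained and 8 lost. The desert between MAT2B and TENM2 (chr5, 59 peaks) was low in persisters, at 215.5 and 207.1 CPM in P10 and 247.2 and 240.9 CPM in P320 against 369.1 and 451.0 CPM in C, and P10 lost 32 of its 59 peaks and P320 21.

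The other two largest were open widest in adapted cells. The desert between ZEB2, a transcription factor of epithelial-mesenchymal transition, and ACVR2A (chr2, 59 peaks) summed to 392.5 and 450.9 CPM in T5 and 300.7 and 333.4 CPM in C, and 11 of its peaks were gained and 1 lost in T5. In P10 it summed to 248.7 and 240.9 CPM, with 10 gained and 16 lost. The desert after CITED2, a transcriptional co-regulator gene (chr6, 57 peaks), summed to 517.7 and 809.4 CPM in T320, 229.9 and 235.2 CPM in P10, 282.2 and 263.9 CPM in P320 and 325.5 and 382.5 CPM in C. In T320 21 of its peaks were gained and 2 lost against C, and 37 were gained and 0 lost against P320. It includes the third most accessible gene desert peak, chr6:139980282-139983173, at 54.9 and 84.0 CPM in T320, 31.9 and 29.9 CPM in P320 and 27.3 and 31.7 CPM in C (1.24 ± 0.28 in T320 against C). The 2 peaks at the ends of CITED2 ranged from 0.53 to 1.61 log2 units in T320 against C, and 1 of them was gained.

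**Figure D5:**
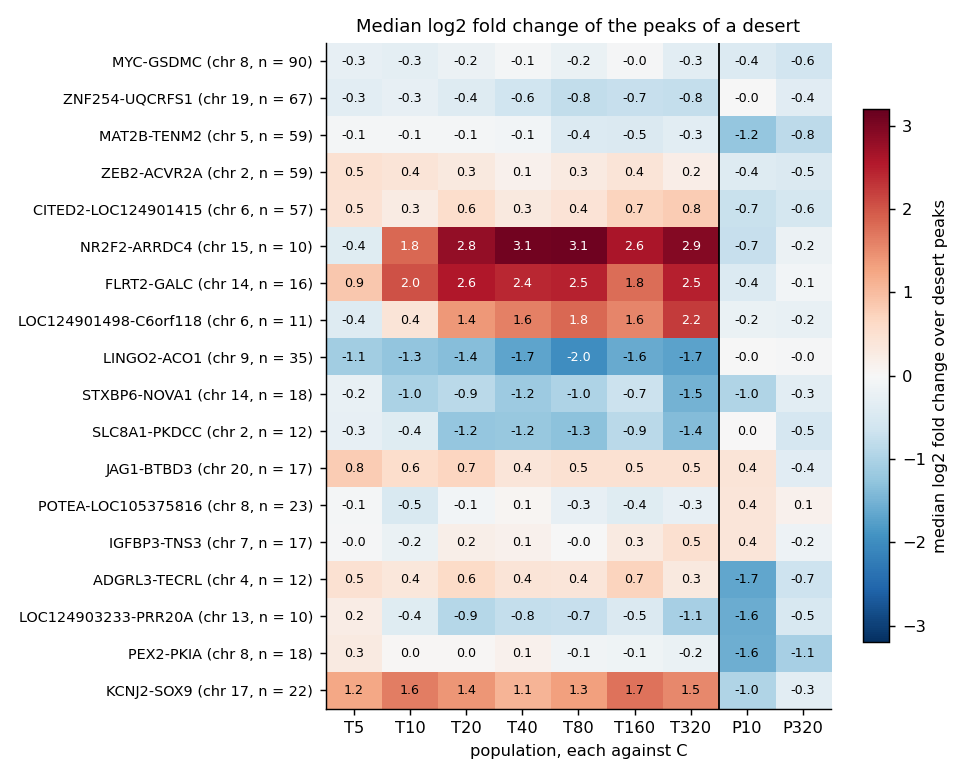
Median log2 fold change over the gene desert peaks of the deserts named in the text (rows) in each adapted population and persister group against C (columns); red is higher and blue lower than C. The NR2F2-ARRDC4 row reaches 2.94 in T320 against C, and the LINGO2-ACO1 row -1.72.

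The deserts described next were chosen after their values were seen, as those with the highest and lowest medians. In the gap from NR2F2, a nuclear receptor gene, to ARRDC4 (chr15:96340263-97960703) all 10 gene desert peaks were gained in T320, with log2 fold changes of 2.33 to 3.70. Their summed level was 13.8 and 7.0 CPM in C and 11.2 and 4.7 CPM in T5. T10 had 35.1 and 41.5 CPM, T20 had 52.5 and 82.6, T40 had 66.3 and 99.1, T80 had 70.7 and 93.8, T160 had 58.8 and 60.8 and T320 had 60.3 and 86.8 CPM. P10 had 7.6 and 6.8 CPM and P320 9.2 and 9.2 CPM, so T10 to T320 stood apart from T5, the persisters and C. The rise was smaller toward the genes: the 19 peaks of the same gap within 500 kb of a gene had a median of 0.83 in T320 (9 gained, 1 lost), peaks in the 1 Mb beyond each flanking gene end 0.31, and the 2 at the ends of NR2F2 0.19 with neither called.

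The gap between FLRT2, an adhesion gene, and GALC (chr14) gave the second highest median in T320. Of its 16 gene desert peaks 14 were gained in T320 and none lost, with summed levels of 97.7 and 135.5 CPM in T320, 23.6 and 21.1 CPM in P10, 26.4 and 24.3 CPM in P320 and 29.6 and 24.4 CPM in C. T5 stood in between at 44.4 and 42.2 CPM. The peak at the end of FLRT2 was also gained in T320 (1.62). The gap between LOC124901498 and C6orf118 (chr6) had 10 of 11 peaks gained and 1 lost in T320, with 66.6 and 92.6 CPM in T320 and 29.5 and 22.3 CPM in C.

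The highest median in T5, 1.24, was in the gap between KCNJ2, a potassium channel gene, and SOX9 (chr17). The 22 gene desert peaks summed to 121.2 and 144.0 CPM in T5, 116.4 and 154.4 CPM in T320, 45.7 and 45.7 CPM in P10, 50.7 and 52.1 CPM in P320 and 57.7 and 62.8 CPM in C. T5 gained 10 and lost 0, T320 gained 12 and lost 0, P10 gained 4 and lost 8 and P320 gained 1 and lost 5. In T10 against P10 16 were gained and none lost. The 2 peaks at the ends of SOX9, an HMG-box transcription factor gene, had log2 fold changes of 0.29 to 0.79 in T320 against C, and neither was called.

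In other deserts losses outnumbered gains in T320. The gap between LINGO2 and ACO1 (chr9, 35 peaks) summed to 79.9 and 32.9 CPM in T320, 163.9 and 159.8 CPM in P10, 182.4 and 182.9 CPM in P320 and 209.8 and 233.3 CPM in C. In T320 23 of its peaks were lost and 0 gained, and in P10 5 were lost and 1 gained. T5 already stood at 102.9 and 111.7 CPM. The peaks within 500 kb of either gene and those in the 1 Mb beyond moved the same way in T320, with medians of -1.48 and -0.57. The gap between STXBP6 and NOVA1, an RNA-binding protein gene (chr14, 18 peaks), lost 10 and gained 0 in T320, and that between SLC8A1 and PKDCC (chr2, 12 peaks) lost 6 and gained 0.

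The lowest medians in P10 were in the gaps between ADGRL3, a latrophilin gene, and TECRL (chr4, -1.66), between LOC124903233 and PRR20A (chr13, -1.60) and between PEX2 and PKIA (chr8, -1.56). The first summed to 26.3 and 27.0 CPM in P10, 44.2 and 41.5 CPM in P320 and 50.2 and 61.2 CPM in C, and 7 of its 12 peaks were lost in P10. Within it chr4:63063462-63064426 fell by 3.1 on the log2 scale in P10, and chr4:63619029-63620970 stood at -0.09. The PEX2 to PKIA gap summed to 41.9 and 43.6 CPM in P10, 61.8 and 61.5 CPM in P320 and 111.0 and 132.2 CPM in C, with 11 of 18 lost in P10 and 7 in P320. The highest median in P10 was 0.41, between JAG1 and BTBD3 (chr20), where 4 of 17 were gained and 3 lost.

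By chromosome, gene desert peaks in T320 did not follow the other peaks of the chromosome exactly. On chromosome 6, 127 of 296 were gained and 24 lost, with a median of 0.81 against 0.35 for all peaks of that chromosome. On chromosome 15 the medians were 1.37 and 0.27 and on chromosome 10 1.01 and 0.24. On chromosome 1, where 72 of 249 were lost and 19 gained, the medians were -0.46 and -0.73, and on chromosome 13 -0.35 and -0.41. The median of gene desert peaks was instead the lower one on chromosomes 8, 9, 14, 16, 19, 20 and 21. It was -0.75 against -0.03 on chromosome 19, -0.60 against -0.05 on chromosome 16 and -0.43 against -0.02 on chromosome 9. In P10 the median of gene desert peaks was below 0 on all autosomes except 7, 9, 16 and 22, where it was 0.09, 0.02, 0.10 and 0.33.

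Of 960 gene desert peaks over a noncoding gene body, 48 were gained (5.00%) and 266 lost (27.7%) in P10, against 9.51% and 12% of all autosomal peaks over such a body. Of the 2364 over no annotated gene body 152 were gained (6.43%) and 713 lost (30.2%), against 9.25% and 13.1% of autosomal peaks of that kind. In T320 212 (22.1%) and 183 (19.1%) of the first were gained and lost, against 15.2% and 14.4% of such autosomal peaks. Of the second 509 (21.5%) and 400 (16.9%) were gained and lost, against 14.9% and 15.9%. Among peaks nearest a listed developmental transcription factor, 50 of 174 were gained (28.7%) and 23 lost (13.2%) in T320, against 15.3% and 15.9% of all autosomal peaks nearest these genes. In P10 19 were gained (10.9%, against 9.49%) and 52 lost (29.9%, against 15.1%). In P320 0 were gained (against 3.94%) and 34 lost (19.5%, against 9.98%). Peaks nearest a listed neural adhesion or synapse gene had 114 of 551 gained and 101 lost in T320, 28 and 181 in P10 and 6 and 87 in P320. Those shares were 20.7% and 18.3% in T320, 5.08% and 32.8% in P10 and 1.09% and 15.8% in P320. Over all autosomal peaks nearest these genes they were 18.7% and 17.0%, 6.45% and 22.7%, and 2.31% and 12.4%. The 174 peaks had only 16 nearest genes and the 551 had 48, so many are neighbours and not independent of each other. Differences between these lists were not tested.

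A few gene desert peaks held nearly the same level in all groups. Between RNF144B and ID4, an inhibitor of basic helix-loop-helix factors, chr6:18997236-18997928 measured 5.74 and 6.23 CPM in T320, 5.69 and 4.18 CPM in P10, 6.53 and 6.20 CPM in P320 and 5.91 and 6.51 CPM in C. After MYC, chr8:128325732-128327328 measured 19.0 and 25.9 CPM in T320, 27.9 and 25.7 CPM in P10, 33.8 and 32.2 CPM in P320 and 28.6 and 30.5 CPM in C. The third, chr2:220394248-220395244 between SLC4A3 and EPHA4, an ephrin receptor gene, averaged 4.43 CPM. None of the 3 was called in any of the 13 comparisons. The second most accessible gene desert peak, chr5:125408646-125413371 after ZNF608, measured 46.7 and 62.6 CPM in T320, 28.2 and 27.6 CPM in P10, 42.0 and 39.9 CPM in P320 and 35.3 and 38.6 CPM in C, and was called only in T10 against P10 (1.06 ± 0.22).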

How the data were processed

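ATAC-seq reads were counted by the authors over 105048 consensus peaks; the counts used here are the raw counts they deposited, per the labels, on GRCh38. The submitters' processing notes name, without their roles, deepTools 3.1 and 3.5.1, HOMER 4.1, Bowtie2, DESeq2, MACS2, Picard, SAMtools and Trim Galore. The treatment of duplicates is not given in the sources used here, nor is the coordinate base. Of 28 labelled samples, 20 libraries in 10 groups of 2 were used and 8 were not analysed here. Total counts were 9627970 to 29699950 per library, which limits precision most for peaks of few reads.

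All peaks entered a single fit of 10 groups without a replicate block: edgeR 4.0.16 in R 4.3.3, robust quasi-likelihood test, TMM scaling, filterByExpr (0 peaks removed). A call needed a Benjamini-Hochberg adjusted p under 0.05 over all peaks and a log2 fold change no smaller than 1 in size. Errors of fold changes are SE, taken as the size of the fold change over the square root of F. The dose trend used the 7 populations' summed counts and a slope of at least 0.25 per doubling. CPM were computed with TMM-scaled totals. The calls were tested on simulated data. Alternatives were other scalings and filters, DESeq2 1.42.0, a replicate block, other distance limits and leaving out each library.

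Peaks and lists were chosen with earlier results of these data known. Named peaks are, for T320, P10 and P320 against C, the 4 largest called rises and falls, for other comparisons the largest each way (at least 2 CPM in the higher group, no overlap between libraries, 1 per desert and direction), the 5 deserts with most peaks, and the 3 highest, farthest and most constant peaks. Distances and noncoding genes come from RefSeq (GRCh38.p14). The planned motif search around peak midpoints needs a genome and was not run.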

Additional observations from a re-analysis of the deposited data

Results flagged for a closer look

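For 4 of 17 named gene desert peaks, T320 and P320 differed while their effects against C had opposite signs. The difference was tested by edgeR's quasi-likelihood test with Benjamini-Hochberg adjustment. The 17 peaks had been named for the largest changes in T320 against C, P320 against C or T320 against P320. That choice used the same libraries, so the test is not separate evidence of a difference. Between CDH9 and LOC124901178 the difference of T320 from P320 was 5.56 ± 0.58 log2 units (SE, adjusted p = 8e-07), with 1.53 in T320 and -4.03 in P320 against C. Between LRFN5 and FSCB it was 3.91 ± 0.47 (adjusted p = 3.1e-06), with 1.09 in T320 and -2.82 in P320. Between ZPLD1 and ALCAM it was 3.61 ± 0.40 (adjusted p = 1.3e-06), with 0.39 in T320, which was not called, and -3.21 in P320. In the LINGO2 to ACO1 gap, at chr9:31023913-31024331, it was -3.63 ± 0.94 (adjusted p = 0.0039), with -2.05 in T320 and 1.58 in P320, neither of them called, and it was no longer called without T320 replicate 2. Both effects share the C libraries, and T320 was sorted while no sort is given for P320.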

How the results depend on the processing

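The share of gene desert peaks called kept within 1.5 times its value in 191 of 215 alternative fits. No named peak changed sign (580 of 602 calls held, 22 were lost). Both tallies include the fits without a filter, which repeat the main fit. The desert share of counts as a ratio to C moved by more than the spread between libraries in 5 of 16 alternatives, and each group's own share in 25 of 40. Outside that range were P320 against C with scaling on gene-end peaks (37.4%), and the dose trend with no minimum slope (12.4%), without T320 (2.05%) and without T5 (4.99%). Leaving out each library in turn, with the lone library assumed to vary like the other groups, gave 3.07% to 13.2% for T5, 12.1% to 25.5% for T10, 20.0% to 34% for T20, 22.1% to 37.4% for T40, 21.0% to 35.3% for T80, 19.1% to 31.4% for T160, 26.1% to 42.9% for T320, 19.5% to 36.2% for P10 and 5.78% to 16.7% for P320, each against C. It gave 32.3% to 48.9% for T320 against P320, 32.7% to 49.6% for T10 against P10 and 6.47% to 7.94% for P320 against P10. The share called in P320 was at or under that of all peaks without C replicate 2 (10.6% and 10.7%), P320 replicate 1 (6.17% and 6.20%) or P320 replicate 2 (5.78% and 6.25%). The ratio of desert counts over C changed with the distance limit: 0.809 at 250 kb and 0.729 at 1000 kb in P10, 0.763 at 250 kb in P320, and 1.08 at 250 kb and 0.979 at 1000 kb in T320.

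With a replicate block the share called was 18.6% in T5 (365 gained and 253 lost), 42.0% in T320, 39.2% in P10 and 21.0% in P320 against C, 47.2% in T320 against P320, 51.0% in T10 against P10 and 23% in P320 against P10. Same-numbered libraries deviated together among C and adapted groups (28 pairs of groups, mean r = 0.387, 0.171 to 0.582) and not with persisters (17 pairs, mean r = -0.0493), and the labels do not say what a number marks. Limits are 2 libraries a group, few reads per peak, copy number not measured and no sort given for persisters.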
